A study of Mus musculus with 6 samples.

Results

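Both treatments that the submitters describe as ending in apoptotic death were compared with each other across the transcriptome of C2AS12 cells, mouse myoblasts that descend from the C2 muscle cell line. On one side were cells infected with an adenovirus for wild-type p300 in the presence of doxycycline (labelled Adp300wt with Dox), and on the other were cells infected with an adenovirus for mutant p300 without doxycycline (Adp300mut). RNA was taken at 0 h, when the cells had not yet received differentiation medium (low in serum), and 24 h after they had, and each treatment and time had 1 oligonucleotide array. These 4 arrays of the 6 in the series were chosen by their labels, and the ratio of doxycycline over mutant was taken at each time. The remaining 2 arrays came from cells with wild-type p300 and no doxycycline (Adp300wt), which the submitters give as surviving, and they did not enter the ratio. All 3 treatments thus share the adenoviral infection and the medium, whereas both the form of p300 and the drug differ between the treatments compared. Which mutation the virus carries and how doxycycline acts in C2AS12 cells is not stated in the labels, and mutant p300 with doxycycline was not analysed here. The form of p300, doxycycline, and the culture and infection behind each array therefore cannot be told apart. The series text speaks of biological replicates, but no second culture of any treatment and time is named.

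p300 is a histone acetyltransferase and transcriptional coactivator that works with MyoD and MEF2 factors at muscle promoters and with many other factors, including p53. Low serum makes cultured myoblasts leave the cell cycle, express myogenin and then contractile proteins, and a part of the cells dies by apoptosis on the way. Doxycycline is a tetracycline antibiotic that is widely used to switch engineered promoters, and tetracyclines can also slow protein synthesis in mitochondria. The comparison addresses whether cells with the same stated outcome have the same transcripts when they reach it in different ways.

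Array signals are relative brightness in linear units, and differences are given as log2 of the doxycycline signal over the mutant signal, with 1 being a doubling. A positive ratio is a higher signal with doxycycline and a negative ratio a higher signal with mutant p300. Of 12422 probe sets, the 6212 with the brighter mean signal over the 6 arrays were analysed, and they covered 4822 genes by symbol. The compared arrays count in that mean, so a gene can pass through the treatment where it is high. Prkar1b, Acaa1b and Ryr1 below passed only because the doxycycline arrays count in it. The median signal was 74.85 with doxycycline and 72.35 with mutant p300 at 0 h, and 78.05 and 68.7 at 24 h. The actin ratio of 3′ to 5′ signal, a sign of RNA integrity, was 1.30 and 1.34 at 0 h and 1.45 and 1.49 at 24 h, in the same order.

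The arrays of both treatments were close. The ratios had a standard deviation of 0.31 at 0 h and 0.40 at 24 h across probe sets, and few probe sets were at least 2-fold apart. At 0 h 33 (0.531%) were higher with doxycycline and 29 (0.467%) with mutant p300, and at 24 h 83 (1.34%) and 58 (0.934%). At both times and in the same direction only 7 probe sets were 2-fold apart, 2 higher with doxycycline (0.0322%) and 5 higher with mutant p300 (0.0805%), and another 5 (0.0805%) were 2-fold apart in opposite directions. At 1.5-fold, a size chosen after the values were seen, there were 52 (0.837%) on each side and 21 (0.338%) with opposite directions. The direction was the same at both times for 3915 of 6212 probe sets (63.0%), with a Pearson correlation of 0.31 across probe sets and a Spearman correlation of 0.35. The paired arrays at 0 h and 24 h share no hybridisation, but probe sets are not independent replicates. For comparison, wild-type p300 without doxycycline was 2-fold apart at both times from doxycycline for 39 probe sets and from mutant p300 for 27. The standard deviations lay nearer together, at 0.34 and 0.47 from doxycycline and 0.34 and 0.45 from mutant p300, at 0 h and 24 h. At 0 h 86 probe sets were 2-fold apart from doxycycline and 84 from mutant p300, and at 24 h 244 and 214. Between the compared treatments these counts were 62 and 141. All these values share arrays with each other.

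limma, fitted to the 4 arrays with time as a term, called 255 probe sets (4.10%) at an adjusted p under 0.05, of which 103 (1.66%) were higher with doxycycline and 152 (2.45%) higher with mutant p300. By gene these were 204 of 4822, with 83 (1.72%) higher with doxycycline and 121 (2.51%) higher with mutant p300. Of the 255 probe sets, 254 had the same direction at both times. A call needs a large mean of both ratios, so this count follows largely from the selection. At an unadjusted p under 0.05 there were 1119 probe sets, 566 and 553 in the same order. The fit has 1 residual degree of freedom for each probe set, and its calls rest on the spread pooled over probe sets of like signal. With no pooling limma called 0 probe sets and 434 had an unadjusted p under 0.05, with quantile normalization it called 0 (983 by the unadjusted p), and with a single pooled spread for all signals 1. Leaving out either array at 24 h or the mutant array at 0 h gave 0 calls and leaving out the doxycycline array at 0 h gave 1, each in a fit on the 5 remaining arrays of the series. With no array left out, a fit on all 6 arrays of the series also called 0 (818 by the unadjusted p). The fits on 5 arrays therefore cannot show that the calls depend on the array left out. Scaling to the spike-in controls left 126, of which 38 were higher with doxycycline and 88 higher with mutant p300. The direction of all 255 held under each of these settings, except that 254 kept it without the mutant array at 0 h. Pooling does not enter the mean ratio, and the 255 were picked for their ratios on these same arrays. That agreement is therefore largely fixed in advance and is no support for the calls. An adjusted p below is limma's with Benjamini-Hochberg adjustment over 6212 probe sets, and a call means only that this fit passed its threshold.

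**Figure D1:**
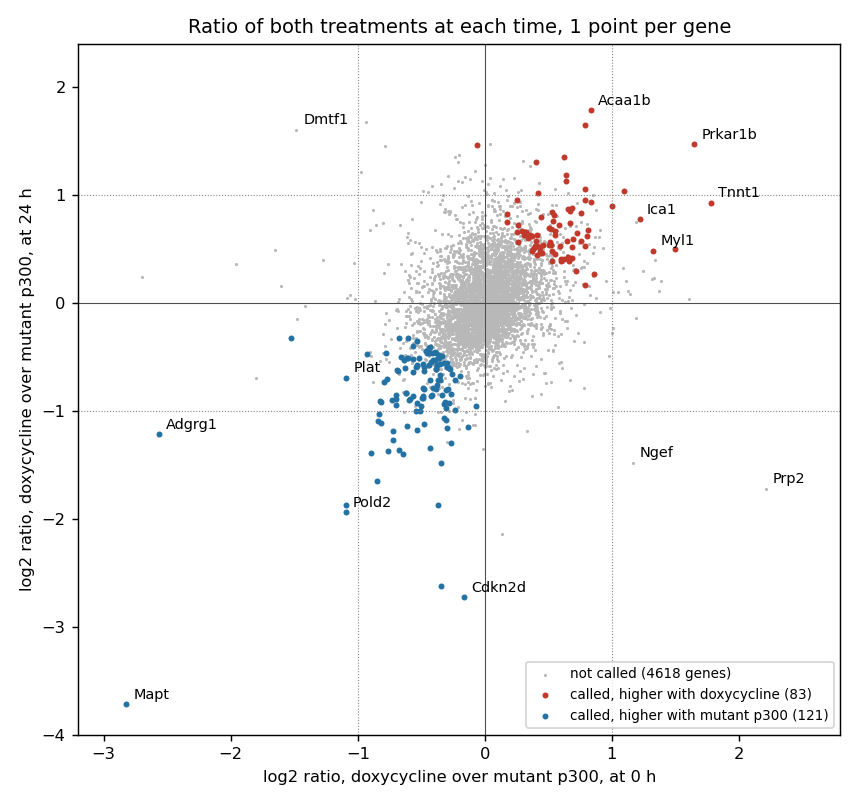
Log2 ratio of the doxycycline signal over the mutant signal at 0 h (x axis) and at 24 h (y axis), 1 point for each of 4822 genes. Red points are the 83 genes that limma called higher with doxycycline and blue points the 121 called higher with mutant p300; dotted lines mark a 2-fold difference. Mapt stands alone at the lower left, and Prkar1b and Tnnt1 lie farthest to the upper right.

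The gene with the widest gap was Mapt, which encodes the microtubule-binding protein tau. Its signal was 10.3 with doxycycline and 116 with mutant p300 at 0 h, and 18.9 and 248.3 at 24 h. Cells with wild-type p300 and no doxycycline had 105.5 and 491, so that the doxycycline arrays were the low ones at both times. The doxycycline value at 0 h was under the floor of 16.4 and that at 24 h just above it. Against the floor the mutant signal was at least 7.07-fold higher at 0 h, and 13.1-fold higher than the measured value at 24 h (adjusted p = 1.75e-05, and up to 0.69 over the alternative settings). The other two probe sets of Mapt were also lower with doxycycline, with mean ratios of -1.24 and -1.52.

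Adgrg1, an adhesion G protein-coupled receptor, had signals of 18.6 and 110.3 at 0 h and 44.4 and 103 at 24 h, with doxycycline and mutant p300 in that order. Wild-type p300 alone gave 233.7 and 296.1, above both. The ratios were -2.57 and -1.21, a mean of -1.89 ± 0.96 (SD, n = 2; adjusted p = 0.00581). The doxycycline signal at 0 h lay just above the floor of 16.4, so the wider ratio rests on a value near it. Pold2, the small accessory subunit of DNA polymerase delta, had 194.1 and 415 at 0 h and 62.2 and 238.7 at 24 h, in the same order. At 24 h its signal with wild-type p300 alone, 64.9, lay next to that with doxycycline, and the mutant array was the high one. Its probe set has a name that marks a relaxed probe design, and the ratios were -1.10 and -1.94 (adjusted p = 1.90e-05).

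Plat, which encodes tissue plasminogen activator, had 437 with doxycycline and 929.4 with mutant p300 at 0 h, and 498.9 and 806.3 at 24 h. Wild-type p300 alone gave 1003 and 2128.5, and the doxycycline array was the lowest at each time. The mean ratio was -0.89 ± 0.28 (SD, n = 2; adjusted p = 4.39e-05). Ndrg1, a gene induced by stress and hypoxia, had 718.9 and 1170 at 0 h and 753.2 and 1452.4 at 24 h. It is represented by another bright probe set, which gave ratios of -0.70 and -0.87 beside -0.70 and -0.95 here (adjusted p = 9.43e-05 here). Pfkp, the platelet-type phosphofructokinase of glycolysis, had ratios of -1.09 and -1.87 (adjusted p = 0.00607), and its other probe set had 98.8 with doxycycline against 114.2 with mutant p300 at 0 h and 38.7 against 77.3 at 24 h (adjusted p = 0.31). Ethe1, a mitochondrial enzyme of sulfide breakdown, had -0.73 and -1.27 (adjusted p = 1.90e-05). Ndrg1, Pfkp and Pdk3 (a kinase that restrains pyruvate use, named after its values were seen) were the 3 genes called of 25 in the glycolysis and hypoxia list, whose medians were -0.04 and -0.07. Over all genes 121 of 4822 (2.51%) were called on that side.

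Csrp2 and Csrp1 encode cysteine-rich LIM proteins that bind the actin cytoskeleton. Csrp2 had 536.3 with doxycycline against 778.4 with mutant p300 at 0 h, and 394.9 against 893.6 at 24 h (adjusted p = 1.51e-04). Its signal with wild-type p300 alone went from 804.8 to 1232.4, and the doxycycline array was lowest at both times. Csrp1 had ratios of -0.50 and -0.95 (adjusted p = 5.15e-04), and its other probe set had -0.44 and -0.46. Tubg1 (gamma-tubulin, which nucleates microtubules) had ratios of -0.76 and -1.37, and Atox1 (a copper chaperone) had -0.73 and -0.90. Ppa1 (a pyrophosphatase), Polr2f (a subunit shared by the RNA polymerases), Xrcc6 (the Ku70 end-joining protein) and H2-DMa (a class II antigen-loading protein) were also called lower with doxycycline, with ratios between -0.54 and -1.65. For Slpi, a secreted protease inhibitor, the probe sets disagreed. The brighter one gave ratios of -0.90 and -1.39 (adjusted p = 1.81e-04), whereas the other had 253.7 against 256.8 at 0 h and 296.4 against 273.9 at 24 h.

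On the other side, Prkar1b, a regulatory subunit of protein kinase A, had 115.1 with doxycycline against 36.7 with mutant p300 at 0 h, and 144.3 against 52.1 at 24 h. Wild-type p300 alone gave 42.5 and 115.9, near the mutant array at 0 h and between both at 24 h. The mean ratio was 1.56 ± 0.13 (SD, n = 2), or 2.95-fold higher with doxycycline (adjusted p = 0.00288). The mean of its arrays without doxycycline lay under the filter of 75.2, so the gene was analysed only through the doxycycline arrays. A dimmer probe set of this gene lay between 33.9 and 78.8 on the 6 arrays and had 37.1 with doxycycline against 78.8 with mutant p300 at 24 h, the opposite direction.

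Lpl, the lipoprotein lipase that frees fatty acids from triglycerides, was flat over time within each treatment. Its signal was 290.2 and 293.4 with doxycycline at 0 h and 24 h, against 162.3 and 153.8 with mutant p300. Wild-type p300 alone gave 160.7 and 146.3, so that only the doxycycline arrays stood apart (mean ratio 0.89 ± 0.07, SD, n = 2; adjusted p = 0.00119). Its other probe set had ratios of 0.62 and 0.75. Hgf, the growth factor that activates muscle satellite cells, had 155.5 against 77.8 at 0 h and 171.1 against 91.5 at 24 h (adjusted p = 0.0148). Igf1, a growth and survival factor of myoblasts, had 376.5 against 257.3 and 412.1 against 265.9 (adjusted p = 0.0102). For Igf1 the mutant arrays were the low ones, since wild-type p300 alone gave 353.4 and 338.7. Angpt1, an angiopoietin, followed the same order, with 147.5 against 87.5 and 215.7 against 120.8, and 138.4 and 210.9 with wild-type p300 alone (adjusted p = 0.0278).

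Among other genes called higher with doxycycline, Acaa1b (a peroxisomal thiolase) had ratios of 0.83 and 1.78. Its probe set passed the signal filter only through the doxycycline arrays. A dimmer probe set of Acaa1b had 78.2 against 78.4 at 0 h and 96.4 against 51.3 at 24 h. Rgs2 (which speeds the turn-off of G proteins) had 0.81 and 0.62. Cp (ceruloplasmin, a copper-binding ferroxidase) had 0.72 and 0.65, Add1 (adducin, of the membrane skeleton) 0.67 and 0.75, and Vps54 (of a vesicle-tethering complex) 0.79 and 0.96. Smarcb1, a core subunit of the SWI/SNF chromatin remodeller, had 680.1 against 543.1 at 0 h and 699.6 against 443.6 at 24 h (adjusted p = 0.0173). Ica1 and Rag1 also had ratios above 0.77 at both times, on probe sets of the relaxed design. The other probe set of Ica1 had 0.92 at 0 h and -0.26 at 24 h. A plainly named probe set of Rag1 lay under the floor on each array. Its signals were 1.8 against 1.8 at 0 h and 4.8 against 2.2 at 24 h. The ratios of Rag1 therefore rest on the relaxed probe set alone.

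**Figure D2:**
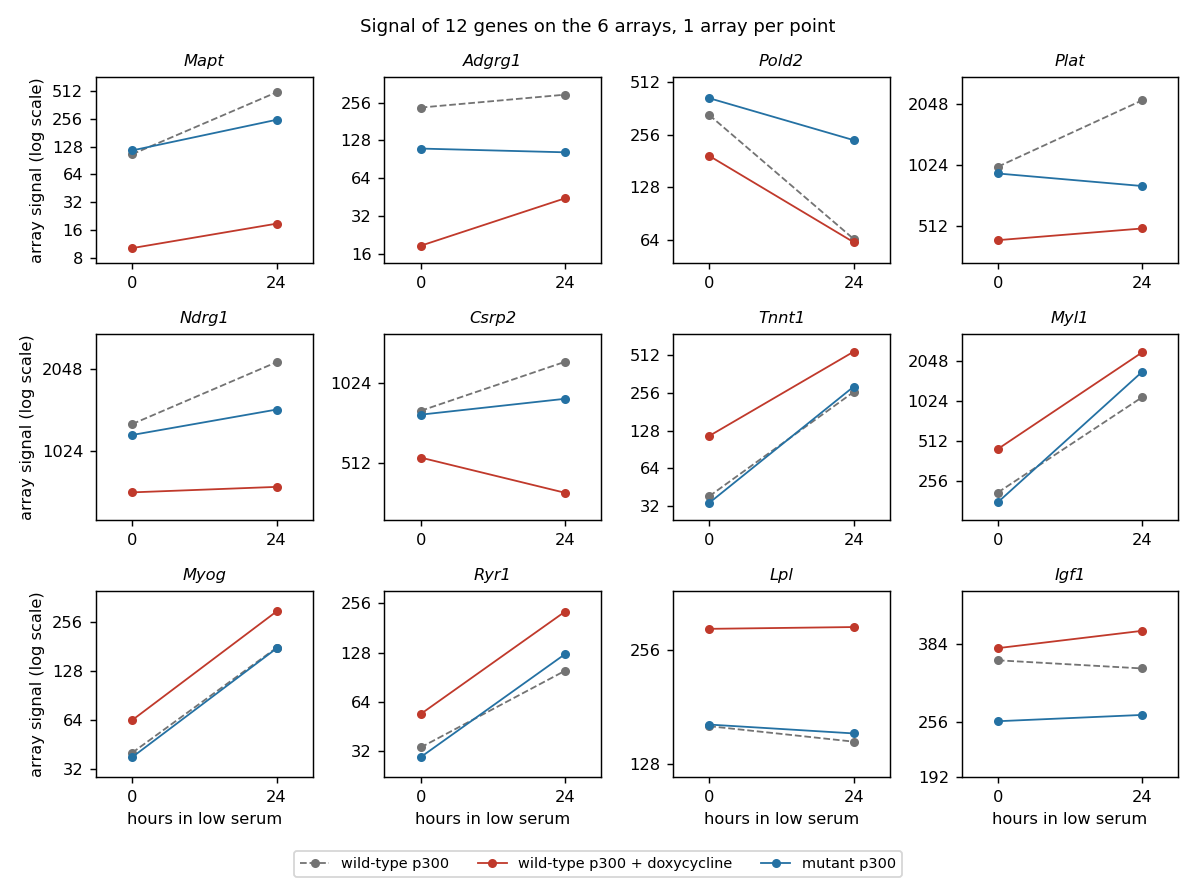
Signal (y axis, log scale) of 12 genes by hours in low serum (x axis, 0 and 24), 1 array per point, for wild-type p300 (grey, dashed), wild-type p300 with doxycycline (red) and mutant p300 (blue). The doxycycline point lies below the mutant point at both times in the first 6 panels, from Mapt (10.3 and 18.9 against 116 and 248.3) to Csrp2, and above it in the last 6, from Tnnt1 to Igf1.

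Muscle genes had the highest median ratio of the lists with at least 9 measured genes. Of 23 measured genes of muscle structure, 5 were called higher with doxycycline and 0 lower, and the ratio was positive at both times for 16 and negative at both for 2, with the other 5 split. Ryr1, which passed the signal filter only through the doxycycline arrays, is among the 16 and in the list's median. The count is therefore not independent of the filter. Over all 4822 genes 83 (1.72%) were called higher with doxycycline, and the ratio was positive at both times for 1540 and negative at both for 1523. The list's median ratio was 0.36 at 0 h and 0.46 at 24 h, beside 0.00032 and 0.0030 over all 4822 genes. With quantile normalization the list's median was 0.34 and 0.37. With the floor at the median of all signals it was 0.25 and 0.46, and 14 of the 23 were positive at both times. At that floor the 0 h median lay just under that of the myoblast markers (0.26), so a part of the gap at 0 h rests on dim signals. Signals were higher at 24 h than at 0 h for 22 of the 23 with doxycycline and 21 with mutant p300. The list's median signal was 185 against 137.3 at 0 h and 474.4 against 288 at 24 h, and wild-type p300 alone gave 148 and 261.

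Tnnt1, the slow skeletal troponin T, had 115.9 with doxycycline and 33.7 with mutant p300 at 0 h, and 548.8 and 288 at 24 h. The doxycycline array was the highest at each time, above 38.1 and 261 with wild-type p300 alone. The ratios were 1.78 and 0.93 (adjusted p = 1.51e-04), on a probe set whose name marks possible cross-hybridisation. The plainly named probe set of Tnnt1, dimmer on average, gave 0.11 and 0.93 and was not called (adjusted p = 0.255). Its signals were 108.2 against 100 at 0 h and 167.1 against 87.5 at 24 h. Myl1, a myosin alkali light chain of fast muscle, had 445.5 and 177.4 at 0 h and 2374.4 and 1697.8 at 24 h, and wild-type p300 alone gave 210 and 1093.5. Its mean ratio was 0.91 ± 0.60 (SD, n = 2; adjusted p = 1.51e-04), with the wider gap before the medium was changed. Acta1 (skeletal alpha-actin) had 168.1 against 125.6 and 497.3 against 246 (adjusted p = 0.0115), Chrng (the fetal acetylcholine receptor gamma subunit) 249.1 against 171.5 and 589.4 against 348.6 (adjusted p = 0.00608), and Tnni1 (slow troponin I) 185 against 136.3 and 290.6 against 167.2 (adjusted p = 0.0415). These 3 genes are named because the count of calls is small, after their values were seen.

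Ryr1, which releases calcium from internal stores for contraction, had 53.9 against 29.4 at 0 h and 228 against 125.4 at 24 h, ratios of 0.87 and 0.86 that did not pass the threshold (adjusted p = 0.0872). This gene passed the signal filter only through the doxycycline arrays. Des (desmin, the muscle intermediate filament) had 0.53 and 0.34 (adjusted p = 0.0517), and Mylpf (the fast regulatory light chain) had 0.56 and 0.64 (adjusted p = 0.147). Against the trend, Chrna1, the alpha subunit of the same receptor as Chrng, had -0.54 and -0.05, and Tpm1 (tropomyosin) had -0.01 and -0.12. Chrna1 and Tpm1 were picked as the 2 genes with negative ratios at both times.

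Myog encodes myogenin, the factor that starts terminal differentiation. Its signal was 63.5 with doxycycline and 37.6 with mutant p300 at 0 h, and 296.4 and 175.7 at 24 h. Wild-type p300 alone gave 40 and 177.3, next to the mutant arrays at both times. The ratio was 0.76 at 0 h and 0.75 at 24 h, and was not called at this signal (adjusted p = 0.0748). Myod1, the determination factor that acts before it, had 711.5 against 593.6 and 813 against 732.1, ratios of 0.26 and 0.15 (adjusted p = 0.36). Of 14 measured myogenic regulators 0 were called, whereas 9 had positive ratios at both times and 1 negative ratios at both (Id1, an inhibitor of the myogenic factors, named after its values were seen). The median was 0.22 at 0 h and 0.12 at 24 h, with Tcf4, a partner of the myogenic factors, at 0.36 and 0.36 (adjusted p = 0.0735).

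Myogenic factors bind the letters CANNTG, the E-box. The start regions of the 3 muscle genes that the account above turns on are shown with these letters in capitals, from RefSeq on GRCm38.p6, each from 250 bases before the transcription start to 50 after it. They lie at chr1:134289754-134290053 on the + strand for Myog, chr7:4515926-4516225 on the - strand for Tnnt1 and chr1:66945007-66945306 on the - strand for Myl1.
Myog: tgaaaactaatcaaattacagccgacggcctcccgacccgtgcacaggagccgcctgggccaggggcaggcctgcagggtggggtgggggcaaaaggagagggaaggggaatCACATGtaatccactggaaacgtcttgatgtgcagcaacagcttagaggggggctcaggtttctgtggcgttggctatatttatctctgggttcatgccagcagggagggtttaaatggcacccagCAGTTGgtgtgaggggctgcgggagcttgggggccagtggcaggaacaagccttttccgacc
Tnnt1: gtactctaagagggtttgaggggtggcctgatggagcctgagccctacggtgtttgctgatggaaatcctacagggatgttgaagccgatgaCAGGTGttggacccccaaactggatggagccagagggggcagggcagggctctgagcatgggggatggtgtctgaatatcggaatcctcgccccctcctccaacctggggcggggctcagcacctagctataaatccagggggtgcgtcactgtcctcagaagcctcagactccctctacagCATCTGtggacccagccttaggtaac
Myl1: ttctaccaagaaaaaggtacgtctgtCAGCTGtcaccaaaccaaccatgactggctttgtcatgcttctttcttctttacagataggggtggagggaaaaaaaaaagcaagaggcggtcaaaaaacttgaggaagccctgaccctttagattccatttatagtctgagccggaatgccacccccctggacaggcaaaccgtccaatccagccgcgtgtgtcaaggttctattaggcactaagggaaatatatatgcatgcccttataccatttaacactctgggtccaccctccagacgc
CANNTG, which reads the same on both strands, begins 138 and 12 bases before the start of Myog, 158 bases before and 24 bases after that of Tnnt1, and 224 bases before that of Myl1. The match in Myl1 is CAGCTG. The window of Ryr1 held 0 matches. Of 32851 promoter windows of the same length, 72.3% held at least 1 CANNTG and 16.3% a CAGCTG, so a match is common and is only a description of these windows.

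**Figure D3:**
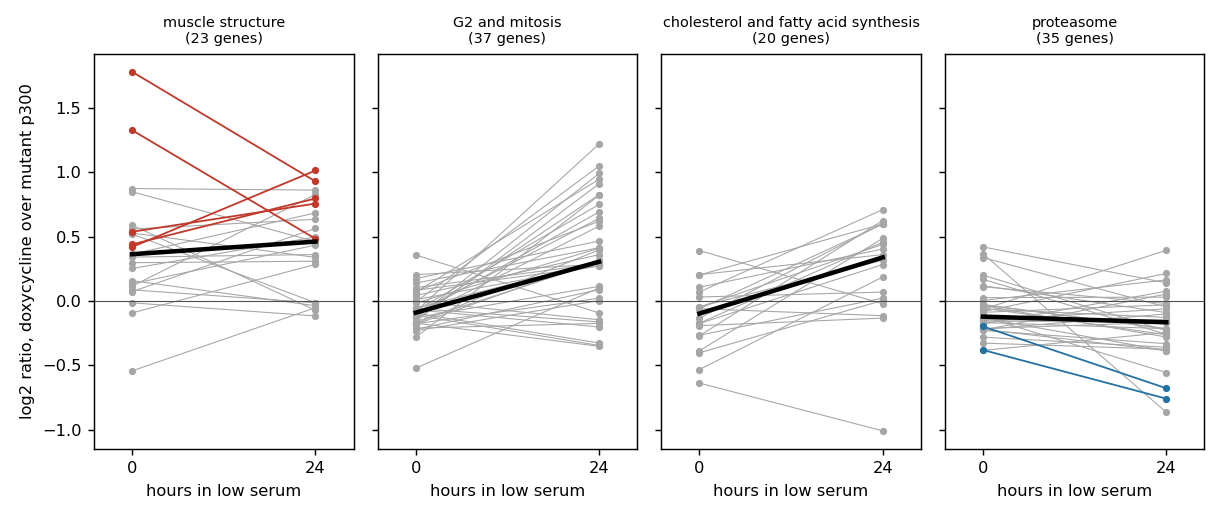
Log2 ratio of doxycycline over mutant p300 (y axis) by hours in low serum (x axis, 0 and 24) for each measured gene of 4 lists, with each line a gene, the black line the list's median, and coloured lines the genes limma called (red higher with doxycycline, blue higher with mutant p300). The muscle median is above 0 at both times (0.36 and 0.46), the proteasome median below 0 at both (-0.12 and -0.17), and the mitosis and lipid synthesis medians cross from -0.09 and -0.10 to 0.31 and 0.34.

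Lists of housekeeping function had negative medians, with small ratios. Over all 4822 genes 121 (2.51%) were called higher with mutant p300. Both ratios were negative for 1523 of the 4822 and positive for 1540. Counts of 1 or 2 calls in the lists below are too few to be read as a result about a list. Of 35 proteasome genes, 2 were called higher with mutant p300 (Psmd5 and Psmd7) and 0 higher with doxycycline. Both ratios were negative for 22 and positive for 3, and the median was -0.12 at 0 h and -0.17 at 24 h. Psmd5, a chaperone of proteasome assembly, had 485.4 with doxycycline against 631.8 with mutant p300 at 0 h, and 311.3 against 526.7 at 24 h (adjusted p = 0.00753). Psmd7 was named because the count is small, after its values were seen, and this subunit of the regulatory particle had ratios of -0.20 and -0.68.

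The medians of the mitochondrial lists were also negative. Of 45 genes of mitochondrial translation and import, both ratios were negative for 25 and positive for 7, with medians of -0.10 and -0.18, and 2 were called higher with mutant p300. Mrps12, a protein of the small mitochondrial ribosomal subunit, had 183.5 against 328.2 at 0 h and 140.9 against 300.1 at 24 h (adjusted p = 4.19e-04). Wild-type p300 alone gave 276.3 and 331.8, so the doxycycline arrays were the low ones. Mrpl13, of the large subunit, had ratios of -0.38 and -0.57 (adjusted p = 0.021). Outside this list, Grpel1, a nucleotide exchange factor of the mitochondrial import chaperone, had 207.2 against 365.3 and 136.7 against 257.9 (adjusted p = 0.00112). Of 53 genes of oxidative phosphorylation, both ratios were negative for 34 and positive for 9, and the medians were -0.07 and -0.14. In this list 1 gene was called, beside 2.51% of all genes called higher with mutant p300. That gene was Atp5e, the epsilon subunit of ATP synthase, with -0.29 and -0.79 (adjusted p = 0.0117). Ndufb3, of complex I, had -0.32 and -0.39 (adjusted p = 0.0907), and Cycs, cytochrome c, had -0.45 and -0.59 (adjusted p = 0.19).

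Among 26 heat shock genes both ratios were negative for 16 and positive for 6, with medians of -0.16 and -0.11. Hsph1, a large cytosolic chaperone, had 432 against 584.5 and 471.8 against 631.5 (adjusted p = 0.035). Dnajb6, a co-chaperone named after its values were seen as the other gene called, had -0.29 and -0.59 (adjusted p = 0.0382). Scaling to the spike-in controls moved the median of all genes to -0.112 at 0 h and 0.105 at 24 h. It moves all ratios of a time by the same amount, apart from values at the floor. A list's position relative to all genes therefore cannot show whether it depends on that scaling. Quantile normalization can change it, and gave medians of -0.11 and -0.12 for proteasome and -0.10 and -0.18 for mitochondrial translation and import. For oxidative phosphorylation it gave -0.08 and -0.08, and for heat shock -0.19 and -0.08, at 0 h and 24 h in that order.

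Immediate early genes, which serum and stress switch on within minutes, had a median of -0.24 at 0 h, the lowest of the lists with at least 9 measured genes, and -0.17 at 24 h. Of 23 measured, 4 were called higher with mutant p300 and 0 with doxycycline, and both ratios were negative for 15 and positive for 4. Over all genes 121 of 4822 (2.51%) were called higher with mutant p300. Egr1, a zinc finger factor induced by growth signals, had 308 with doxycycline against 468.5 with mutant p300 at 0 h, and 559 against 793.3 at 24 h (adjusted p = 0.00628). At 24 h both lay above wild-type p300 alone (463), with the mutant array highest. Egr2 had 124.6 against 198.6 and 127.2 against 327.5 (adjusted p = 0.00141). Atf3, a stress-induced factor, had 114 against 197.4 and 80.9 against 134.2 (adjusted p = 0.0446). Klf4, a growth-restraining factor named after its values were seen, had ratios of -0.32 and -0.92 (adjusted p = 0.00978).

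Signalling and matrix genes were split. Tgfb1, which restrains myoblast differentiation, had 253.9 against 409.3 and 424.4 against 650.5 (adjusted p = 0.00206), and it was the 1 gene called of 27 in the TGF-beta, BMP and Notch list. Fbln2 (fibulin-2) and Lamc1 (laminin gamma 1) were the 2 genes called of 34 extracellular matrix genes, with -0.52 and -0.51 for Fbln2 and -0.48 and -0.59 for Lamc1. The name of the Lamc1 probe set marks possible cross-hybridisation. A plainly named one near the floor had 23.8 against 6.3 and 22.1 against 14.9, the opposite direction. Over all 4822 genes 121 (2.51%) were called higher with mutant p300, so these counts are too few to be read as a result about either list. The extracellular matrix list as a whole had medians of 0.07 and -0.01, and 14 of its genes had positive ratios at both times against 8 with negative ones. Mmp14, a membrane-bound metalloproteinase, had 989.1 against 642.3 and 1504.5 against 1132.4 (adjusted p = 0.01), opposite in direction to Plat in the same list.

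**Figure D4:**
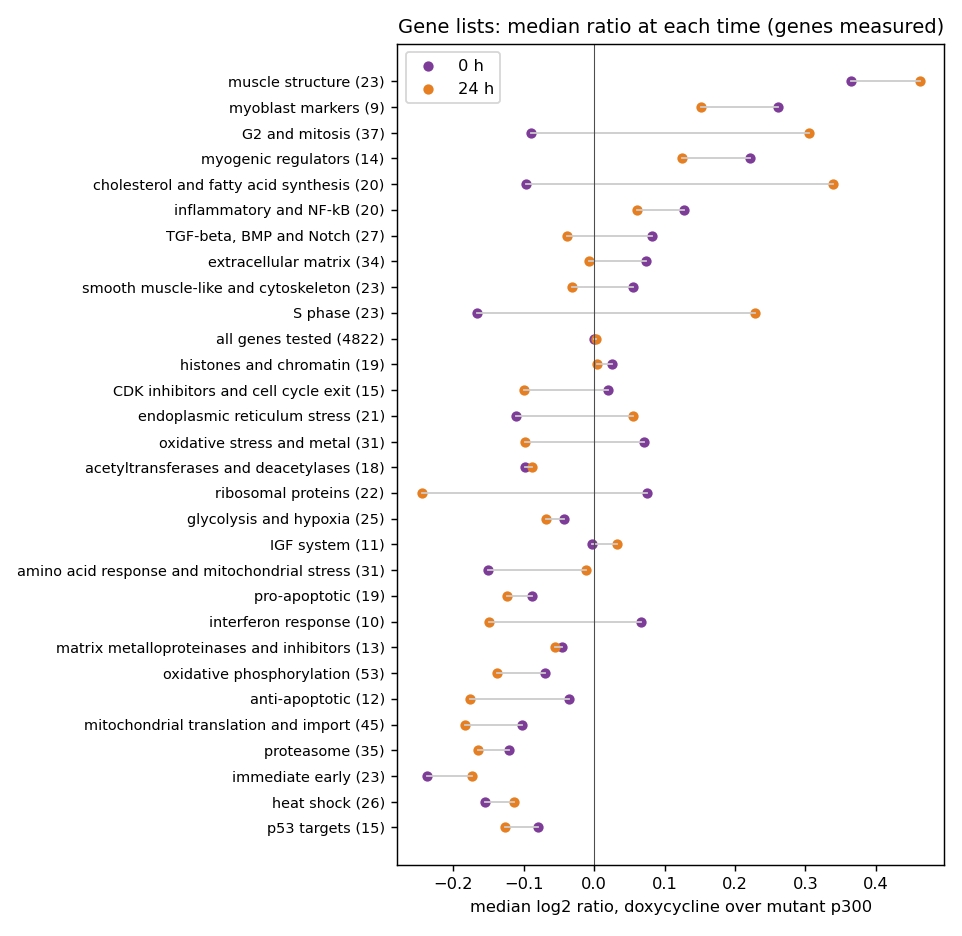
Median log2 ratio of doxycycline over mutant p300 at 0 h (purple) and 24 h (orange) for each list with at least 9 measured genes, with the number of genes measured in brackets. Muscle structure has the highest medians at both times (0.36 and 0.46), and the medians of 3 lists, S phase, G2 and mitosis, and cholesterol and fatty acid synthesis, go from below 0 at 0 h to above 0.2 at 24 h, which for G2 and mitosis becomes 0 with a floor at the median signal and for S phase 0.15.

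Some lists had opposite medians at the 2 times. Of 37 genes of G2 and mitosis, 10 had a ratio above 0 at 0 h and 29 at 24 h, and the median went from -0.09 to 0.31 (0.18 at 24 h with quantile normalization). With the floor at the median of all signals it was 0 at 24 h, with 15 of the 37 above 0, so that the gap rests on signals under that floor. All 37 had lower signals at 24 h than at 0 h in each of the 3 treatments. Their median signal was 402.1 with doxycycline and 436.2 with mutant p300 at 0 h, and 74.9 and 55.3 at 24 h, so the later ratios compare low signals. Mki67, the proliferation marker Ki-67, had 573.5 with doxycycline and 606.6 with mutant p300 at 0 h, and 44.3 and 19 at 24 h, with 6.8 for wild-type p300 alone. Top2a (topoisomerase II alpha) had 36.4 against 18.3 at 24 h and Kif23 (a kinesin of cytokinesis) 43.9 against 21.2, both named after their values were seen. Ccnb2, a mitotic cyclin that stayed bright, had 1939.5 against 1718 at 0 h and 326.7 against 236.5 at 24 h (adjusted p = 0.125). limma called 0 of the 37.

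Of 23 S phase genes, 7 had a ratio above 0 at 0 h and 17 at 24 h, with medians of -0.17 and 0.23 (0.15 at 24 h with quantile normalization, and also with the higher floor). Pcna, the sliding clamp of DNA polymerase, was the 1 gene called and was lower with doxycycline at both times, with 913.9 against 1153 and 318.3 against 446.9 (adjusted p = 0.0403). Uhrf1, which recruits the maintenance DNA methyltransferase, had ratios of -0.64 and -0.82 (adjusted p = 0.067). Among the 20 lipid synthesis genes (cholesterol and fatty acids), 6 had a ratio above 0 at 0 h and 16 at 24 h, with medians of -0.10 and 0.34, and 0 were called. Fasn (fatty acid synthase) had 603.2 against 574.6 at 0 h and 686.9 against 419.7 at 24 h, and Hmgcs1, an early enzyme of cholesterol synthesis, 769.1 against 802.5 and 685 against 452.8. Fasn and Hmgcs1 were named after their values were seen. Dhcr7, an enzyme of the last step of cholesterol synthesis, had the opposite direction at 24 h, with 75.6 against 117.6 and 50.4 against 101.4 (adjusted p = 0.108). Whether these lists differ between the times was not tested, since there is 1 array for each treatment and time.

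Ribosomal protein genes had a median ratio of 0.08 at 0 h and -0.24 at 24 h over 22 genes, with 16 and 4 above 0. Quantile normalization changed the sign at 0 h to -0.03 and left -0.05 at 24 h, so no direction is given for them.

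Genes of cell death did not form a one-sided group. Of 19 pro-apoptotic genes 1 was called on each side, 4 had positive and 9 negative ratios at both times, and the medians were -0.09 and -0.12. Over all 4822 genes 83 (1.72%) were called higher with doxycycline and 121 (2.51%) higher with mutant p300. Casp4, an inflammatory caspase, had 327.1 against 193.4 at 0 h and 481.6 against 322.5 at 24 h (adjusted p = 0.00423). Casp12, its neighbour in the same family, had ratios of 0.74 and 0.56 (adjusted p = 0.0987). Tradd, an adaptor of the TNF receptor named after its values were seen, was lower with doxycycline, with 323.3 against 436.6 and 169.5 against 429.6 (adjusted p = 9.83e-04). Pea15a, which blocks caspase activation at death receptors, was the 1 anti-apoptotic gene called of 12, with 343.5 against 412.9 and 130.9 against 322.3 (adjusted p = 0.00693). Cdkn2d, an inhibitor of CDK4 and CDK6 named after its values were seen, had 265.1 against 296.4 at 0 h and 19.2 against 127 at 24 h, so that its call (adjusted p = 0.00893) rests on the later time. Its doxycycline signal at that time lay just above the floor of 16.4.

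Of 15 p53 target genes 1 was called, Ccng1 (cyclin G1), with 745.5 against 621.2 and 693.8 against 467.4 (adjusted p = 0.0423). The list's medians were -0.08 and -0.13. Cdkn1a, the p21 inhibitor and another p53 target, had ratios of 0.28 and -0.13 (adjusted p = 0.789), and its other probe set had 0.30 and -0.04. Of 11 genes of the IGF system, Igf1 was the 1 called, and the medians were -0.0024 at 0 h and 0.03 at 24 h.

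The inflammatory and NF-kB list had 3 genes called higher with doxycycline and 1, Slpi, called lower, of 20. Over all 4822 genes 83 (1.72%) were called higher with doxycycline and 121 (2.51%) lower. Cxcl5, a chemokine that attracts neutrophils, had 619.4 against 384.2 and 344.9 against 240 (adjusted p = 0.00587). Vcam1, an adhesion molecule that myoblasts carry, had 408 against 340.2 and 759.2 against 461.4 (adjusted p = 0.0259), and its other two probe sets were higher with doxycycline at both times. Il1rn, the interleukin-1 receptor antagonist named after its values were seen, had 0.86 and 0.27 (adjusted p = 0.0471). Ccl2, the monocyte chemokine, had 321.1 against 441.5 at 0 h and 150.7 against 217.6 at 24 h. Both treatments lay far below wild-type p300 alone (1487 and 1773.7), and the gap between them, -0.46 and -0.53, did not pass the threshold (adjusted p = 0.0511).

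Of 18 genes in the list of acetyltransferases and deacetylases, 1 was called, beside 121 of all 4822 (2.51%) called higher with mutant p300. The gene called was a deacetylase and not, like p300, an acetyltransferase. Hdac1, a histone deacetylase, had 327.8 against 426.2 at 0 h and 264.1 against 394.3 at 24 h (adjusted p = 0.035). Crebbp, the close relative of p300, had ratios of -0.14 and 0.24 (adjusted p = 0.897). Kat2b, the acetyltransferase PCAF, had 0.32 and 0.28 (adjusted p = 0.188), and Hat1, which acetylates newly made histones, had -0.33 and -0.78 (adjusted p = 0.141). The transcript of p300 itself, from the cells or from the virus, was not analysed here.

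Further lists gave 0 or 1 calls, beside 83 (1.72%) and 121 (2.51%) of all 4822 genes called higher with doxycycline and with mutant p300. Of 31 genes of the amino acid response and mitochondrial stress, Mthfd2, a mitochondrial folate enzyme named after its values were seen, was the 1 called, with ratios of -0.28 and -0.93, and the medians were -0.15 and -0.01. Of 31 genes of oxidative stress and metal handling, 1 was called, Srxn1 (sulfiredoxin), and its probe sets were called in opposite directions. The brighter had -0.48 and -1.13 and the other 0.50 and 1.22. Of 21 genes of endoplasmic reticulum stress and 10 of the interferon response, 0 were called. Smarcb1 was the 1 gene called of 19 in the histone and chromatin list, whose medians were 0.03 at 0 h and 0.0037 at 24 h.

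The arrays of wild-type p300 without doxycycline, which took no part in the ratio, were set beside the called probe sets. Among the 152 probe sets called higher with mutant p300, the wild-type signal was above both for 32, between them for 81 and below both for 39 at 0 h, and for 59, 72 and 21 at 24 h. Over all 6212 the counts were 1993, 1918 and 2301 at 0 h and 1763, 1989 and 2460 at 24 h. Among the 103 called higher with doxycycline, they were 18, 66 and 19 at 0 h and 13, 58 and 32 at 24 h. At both times the wild-type signal was nearer to the mutant one for 58 of the 152 and 38 of the 103, and nearer to the doxycycline one for 50 and 31. Over all 6212 it was nearer to the mutant one for 1594 and to the doxycycline one for 1745. Neither treatment was thus the one that lay apart throughout. At both times the wild-type signal of Mapt and Csrp2 was nearer to the mutant one, and that of Igf1 and Angpt1 nearer to the doxycycline one. For Plat it was near the mutant signal at 0 h (1003 against 929.4), and at 24 h it was above both (2128.5).

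Markers of cell types were read alongside the muscle genes. All 9 myoblast markers on the array passed the signal filter, and their summed signal was 3300 with doxycycline against 3093 with mutant p300 at 0 h, and 4728 against 4196 at 24 h. Their median ratio was 0.26 and 0.15. Of 15 markers of macrophages and leukocytes 4 passed the filter, and 8 or 9 were under the floor on each array. The summed signal of the 15 was 1036 with doxycycline against 886.7 with mutant p300 at 0 h and 928.3 against 753.2 at 24 h. The 4 that passed had positive ratios at both times, with medians of 0.17 and 0.20, and 0 were called. Of 9 endothelial and 12 epithelial markers 1 each passed, with ratios of 0.35 and 0.03 for the endothelial Eng and 0.69 and 0.17 for the epithelial Cdh1, neither called. Of 6 bone and cartilage markers 0 passed. Of 8 adipocyte markers 3 passed, among them Lpl, with a summed signal of 1690 against 1285 and 1529 against 1423. The part of these markers in the muscle ratios was not tested. In bulk RNA, a change in the share of cells and a change of RNA per cell cannot be told apart.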

How the data were processed

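Total RNA of C2AS12 cells was labelled and hybridised by the submitters to 6 arrays, 1 for each of 3 treatments at 0 h and 24 h. The deposited values are array signal in linear intensity for 12488 probe sets; the submitters' processing notes name MAS5, and the sources used here do not give its version or settings. The trimmed means (2nd to 98th percentile) lay between 199.3 and 200, so the values were used as deposited. From these deposited intensities, 66 control probe sets were removed, probe sets with a mean signal of at least the median (75.2) were kept, values under the 25th percentile (16.4) were raised to it, and log2 was taken.

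Of the 6212 probe sets kept, 5620 had 1 gene symbol in the platform annotation provided with the data, 223 several and 369 none, and 1153 had names that mark possible cross-hybridisation or a relaxed design. The brightest probe set stood for a gene. Of 701 genes with several kept probe sets, 283 had mean ratios of opposite sign.

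The model had treatment and time as terms and was fitted to the 4 arrays with limma 3.58.1 (R 4.3.3), using eBayes with its trend option and 2-sided Benjamini-Hochberg adjusted p-values, and it was checked on simulated data. With 1 array per treatment and time, the p-values rest only on the spread among these arrays, which may be technical, and the number of arrays limits the precision. Named genes were the 15 on each side with the largest smaller ratio of both times, the 15 on each side with the smallest p among calls, the 5 on each side with the largest opposite ratios, up to 3 from each of 34 lists, and Myog, Myod1, Igf2, Ccl2, Mki67, Cdkn1a and Crebbp, 139 genes in all, of which a part is described. The members and lists were chosen with earlier results of these data known. Alternatives varied the filter, floor, scaling, variance model and arrays fitted. Promoter sequences came from RefSeq, GRCm38.p6.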

Additional observations from a re-analysis of the deposited data

Results flagged for a closer look

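For 3 genes, the ratio of doxycycline over mutant p300 was 2-fold or more at both times but in opposite directions, and the difference between the times was not tested. Prp2, a salivary proline-rich protein gene, had 203.3 with doxycycline against 43.9 with mutant p300 at 0 h and 48.5 against 159.7 at 24 h, a log2 ratio of 2.21 and then -1.72. Its probe set is of the relaxed design, and a dimmer one of the same gene had 38.5 against 40.8 at 0 h and 41.4 against 84.2 at 24 h. Ngef, a guanine nucleotide exchange factor, had 98.2 against 43.8 and then 21 against 58.6, a log2 ratio of 1.17 and then -1.48. Dmtf1, a cyclin D-binding factor, had 27.9 against 78.1 and then 140.4 against 46.2, a log2 ratio of -1.49 and then 1.60.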

How the results depend on the processing

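The 255 limma calls, 103 higher with doxycycline and 152 higher with mutant p300, became 0, 0 and 0 with no filter, with quantile normalization, with no variance moderation and with all 6 arrays in the fit. They became 1, 0 and 1 with no variance trend, 126, 38 and 88 with scaling to the spike-in controls, and 52, 17 and 35 with the floor at the median. Leaving out 1 array at a time gave between 0 and 263 calls, 0 to 107 higher with doxycycline and 0 to 156 higher with mutant p300. With 1 wild-type array left out, the other is fitted exactly by its own treatment term. The residual is then that of the main fit, so agreement with the 255 calls is largely fixed in advance. The fit on all 6 arrays already gave 0 calls. The fits without 1 of the 4 compared arrays therefore cannot show that the calls depend on that array. At an unadjusted p under 0.05 limma gave 988 probe sets with no filter, 983 with quantile normalization, 434 with no moderation and 818 with all 6 arrays. The 2-fold counts at both times, 2 and 5, became 37 and 25 with no filter, 0 and 0 with the filter at the upper quartile, 0 and 1 with the floor at the median, and 1 and 2 with plainly named probe sets, an alternative added after seeing the data. Quantile normalization left 1 higher with doxycycline, and a limit of 1.5-fold, also added after seeing the data, gave 52 and 52. The share with the same direction, 63.0%, was 45.5% with no filter, where values tied at the floor count as not the same, and 56.2% with spike-in scaling. Over each gene described under each alternative, 618 results lost their call, 13 gained one, 809 kept their side of the threshold and 6 values without a test moved. The direction turned for 1, Eng, whose mean ratio ranged from -0.018 without the mutant array at 0 h to 0.405 without that at 24 h. Where no construction of the alternative shows the cause of a change, the cause was not tested. The fit pairs the arrays by time, which is a term in it.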
